A study of Bursaphelenchus xylophilus with 12 samples.

Results

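The change of adult pine wood nematodes (Bursaphelenchus xylophilus, strain NB-6) between 12 h and 24 h of immersion in adjuvant alone was examined in 6 of the 12 messenger RNA libraries of the series. The 6 are the libraries titled EC24 (3 libraries, 24 h) and EC12 (3 libraries, 12 h), and they were chosen by those titles. The adjuvants named in the labels are octylphenol polyoxyethylene-10, a non-ionic surfactant, and n-butyl alcohol, a solvent. Their concentration is described as equal, with no value. The treatment text calls the adjuvant groups ON and never spells out EC, so EC was taken as adjuvant by elimination. The other 6 libraries, EB24 and EB12, came from adults immersed for the same times in emamectin benzoate (EB in the labels, an avermectin that opens glutamate-gated chloride channels) at 0.1 mg/L, and are used here only to ask where the change with time differed. All groups shared the strain, growth on the fungus Botrytis cinerea on potato dextrose agar, a temperature of 25 °C and 200 pooled adults per library. The sources used here give neither the sex nor the age of the adults, nor whether food was present in the liquid.

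The pine wood nematode feeds on fungi and on living cells of pine, is carried between trees by longhorn beetles, and causes pine wilt disease. In the laboratory it is kept on grey mould, a fungus, on agar plates, and worms are moved into liquid for exposure to an agent. Avermectins dissolve poorly in water, so a surfactant and a solvent carry them, and worms in that carrier alone serve as the control at each time. The same controls, set against each other, show how the messenger RNA of adult worms changed between both times with no agent. No library from worms before immersion was analysed here, so the level at the start is not known. The 12 h titles carry a group number that the 24 h titles lack. Since no batch or date is named in the labels, a batch that went with time cannot be told apart from it. In a pool of whole worms, fewer cells of a type and less RNA per cell cannot be told apart either. Genes are given by their ID, because the table pairs the IDs with no names or descriptions. Markers that would check the adult label, and the pathways behind the changes, are for that reason not analysed here. Nothing in the labels ties the replicates to separate cultures, and p-values therefore cover the spread among libraries, part of which may be technical.

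The libraries of 24 h and 12 h stood far apart, and the EC12 libraries were less alike than the EC24 libraries. Levels are in FPKM, fragments scaled to the length of the gene and to the library's size, and differences are on the log2(FPKM + 1) scale, on which changes of low genes come out too small. Of the 18036 IDs in the table, 13206 reached an FPKM of 1 in 3 or more of the 6 libraries and were tested. Pearson correlations across these genes were 0.991 to 0.993 within EC24, 0.957 to 0.974 within EC12 and 0.896 to 0.910 between the times. Between replicates, genes had a median SD of 0.11 log2 units in EC24 and 0.26 in EC12, and 79.9% of genes had the larger SD in EC12. EC12 replicate 1 stood apart from EC12 replicates 2 and 3. On principal component 2, which held 13.8% of the variance, it lay at 44.2, while the other EC12 libraries lay at -20.4 and -17.4 and the EC24 libraries at -2.61 to -1.52. Of the 3 EC12 libraries it was the nearest to the EC24 mean for 48.4% of all tested genes, 52.6% of the genes that rose and 53.6% of those that fell. Since EC12 replicates 2 and 3 lay together, an even split among the 3 is not the share to compare with. Correlations with the EC24 libraries were 0.908 to 0.910 for EC12 replicate 1 and 0.896 to 0.908 for EC12 replicates 2 and 3. On component 1 EC12 replicates 1, 2 and 3 lay at 38.6, 54.5 and 52.3, and the EC24 libraries at -49.3 to -47.2. Read totals are not in the table, so the depth behind a value is not known in reads. Steps between low values put the depth of EC24 replicates 2 and 3 at 1.003 and 1.18 times that of EC24 replicate 1. For EC12 replicates 1, 2 and 3 the favoured readings were 1.16, 2.46 and 2.24 times, and the next best were 2.32, 1.23 and 1.12 times. The log-likelihood gaps between the readings were 12.1, 19.1 and 26.8, against 208 and 184.5 for EC24 replicates 2 and 3.

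**Figure D1:**
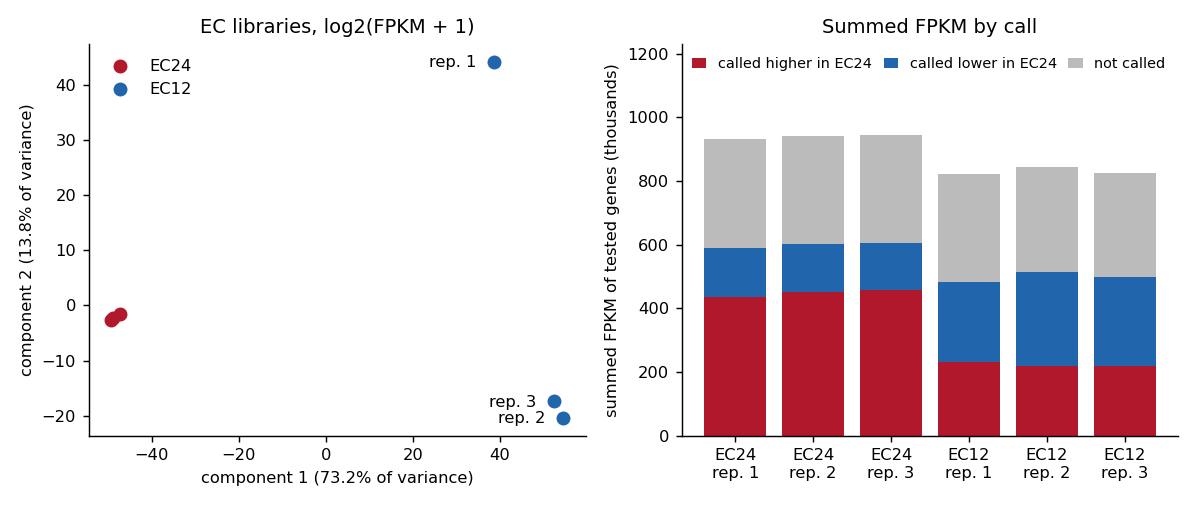
Left, the 6 EC libraries on principal components 1 and 2 of log2(FPKM + 1) over the tested genes, 1 point per library. Right, the summed FPKM of the genes called higher, called lower and not called in EC24 against EC12, stacked for each library. The EC24 points lie together, EC12 replicate 1 lies apart at 44.2 on component 2, and the genes called higher sum to 448490 FPKM on average in EC24 against 223426 in EC12. The direction of that last difference is fixed by the choice of genes.

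Between 12 h and 24 h without the agent 3219 genes rose and 3387 fell, which is 24.4% and 25.6% of the 13206 tested and 50% together (limma on the 6 libraries, two-sided, Benjamini-Hochberg adjusted p under 0.05). The groups did not overlap for 8084 genes, 61.2% of those tested. As deposited, large rises were more frequent than large falls. Of the genes that rose, 1508 (46.8%) did so by 2-fold or more, 209 (6.49%) by 4-fold or more and 46 by 8-fold or more, on the scale named above. Of those that fell, 1139 (33.6%) changed by at least 2-fold, 105 (3.10%) by at least 4-fold and 16 by at least 8-fold. With equal library sums the order at 2-fold turned round, with 1136 rises and 1607 falls, while at 4-fold rises stayed the more frequent (162 and 144). The median difference was 0.96 log2 units among genes called higher and -0.81 among those called lower. Leaving out 1 library gave 2251 to 4443 rises and 2421 to 3842 falls. The split of the calls depended on the scaling: rises were 48.7% of calls as deposited and with median ratio scaling, 46.2% with quantile normalization, but 36.3% (2462 higher, 4315 lower) when every library was set to the same sum. That last scaling moved the median of all genes to -0.11 log2 units, against 0.04 as deposited.

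**Figure D2:**
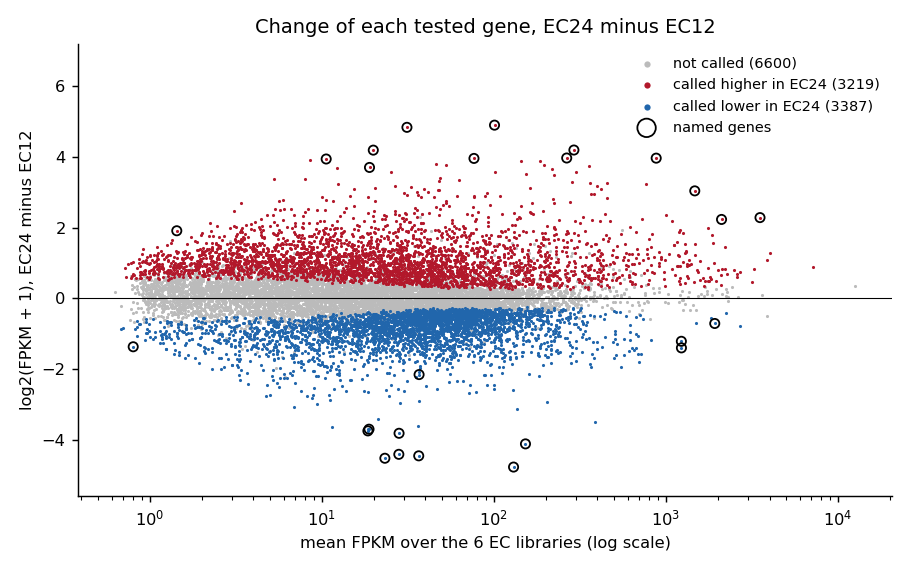
Each point is 1 of the 13206 tested genes, with the mean FPKM over the 6 EC libraries on a log axis and the difference EC24 minus EC12 in log2(FPKM + 1) on the vertical axis. Colours mark genes called higher (3219), called lower (3387) and not called (6600), and circles mark the named genes, which lie between -4.78 and 4.90 and hold the largest changes in both directions.

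Of the 6600 genes that did not pass the test, 1514 had a 95% interval within 0.5 log2 units of 0, so a larger change lay outside it. For the other 5086 the interval reached further, and a change of that size could not be detected or dismissed with these libraries.

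The most abundant messages took a larger part of the EC24 than of the EC12 libraries. The 100 highest genes of each library held 25.4% ± 0.94 of its summed FPKM in EC24 and 20.5% ± 0.35 in EC12 (SD, n = 3), and the 10 highest held 6.21% ± 0.19 in EC24 and 4.96% ± 0.09 in EC12. The summed FPKM itself was 939269 ± 6264 in EC24 and 831384 ± 12335 in EC12. For each of these measures all EC24 libraries lay above all EC12 libraries (exact permutation tests, two-sided, p = 0.1, the smallest that 3 against 3 can give). In EB the shares overlapped between the times: the 100 highest held 22.2% to 23.0% in EB24 and 20.9% to 23.6% in EB12. The 10 highest held 5.67% to 5.83% in EB24 and 5.04% to 6.17% in EB12. The summed FPKM was 916720 to 929471 in EB24 and 861704 to 870950 in EB12. Genes called higher summed to 448490 ± 12106 FPKM in EC24, against 223426 ± 7850 in EC12. Genes called lower summed to 151137 ± 3067 in EC24, against 275243 ± 22123 in EC12. Both sets were called on these same libraries, so the direction of these sums is fixed by the choice. The IDs listed at 0 were also more numerous at 24 h, 2730 ± 26.6 in EC24 and 2545 ± 89.3 in EC12. IDs with an FPKM of at least 1 numbered 13162 ± 60.1 in EC24 and 12789 ± 240.2 in EC12 (for both, SD, n = 3, exact permutation tests, p = 0.1 each). Both depth readings given above put every EC12 library deeper than EC24 replicate 1. EC24 replicate 3, at 1.18 times, lay above the favoured reading of EC12 replicate 1 (1.16) and the next best of EC12 replicate 3 (1.12). Whether depth bears on the counts at 0 was not tested.

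Calls in both directions depended on abundance, and as deposited rises led at the low and high ends and falls in the middle. Classes were set by the mean FPKM over the 6 libraries. Under an FPKM of 5, 642 of 2726 genes rose and 287 fell. At 5 to 20 the counts were 854 and 733 of 3572. The balance turned in the middle classes. There were 723 rises and 1061 falls among 3094 genes at 20 to 50, and 658 rises and 1142 falls among 3043 genes at 50 to 200. At 200 and above 342 of 771 genes rose and 164 fell, so rises led again at the top. The medians of the classes, from low to high, were 0.24, 0.12, -0.12, -0.15 and 0.29 log2 units, beside 0.04 over all tested genes. Falls outnumbered rises at 20 to 50 and at 50 to 200 under all 4 scalings. Elsewhere the direction was less fixed: after quantile normalization the counts at 200 and above were 231 higher and 241 lower, at 5 to 20 they were 772 and 854, and with equal sums at 5 to 20 they were 680 and 922. Under an FPKM of 5 quantile normalization gave 444 and 440. Single libraries moved the counts as well, to 413 higher and 181 lower under an FPKM of 5 without EC24 replicate 2, and to 1368 higher at 5 to 20 without EC12 replicate 1. Without EC12 replicate 3 the counts at 5 to 20 were 709 higher and 716 lower.

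**Figure D3:**
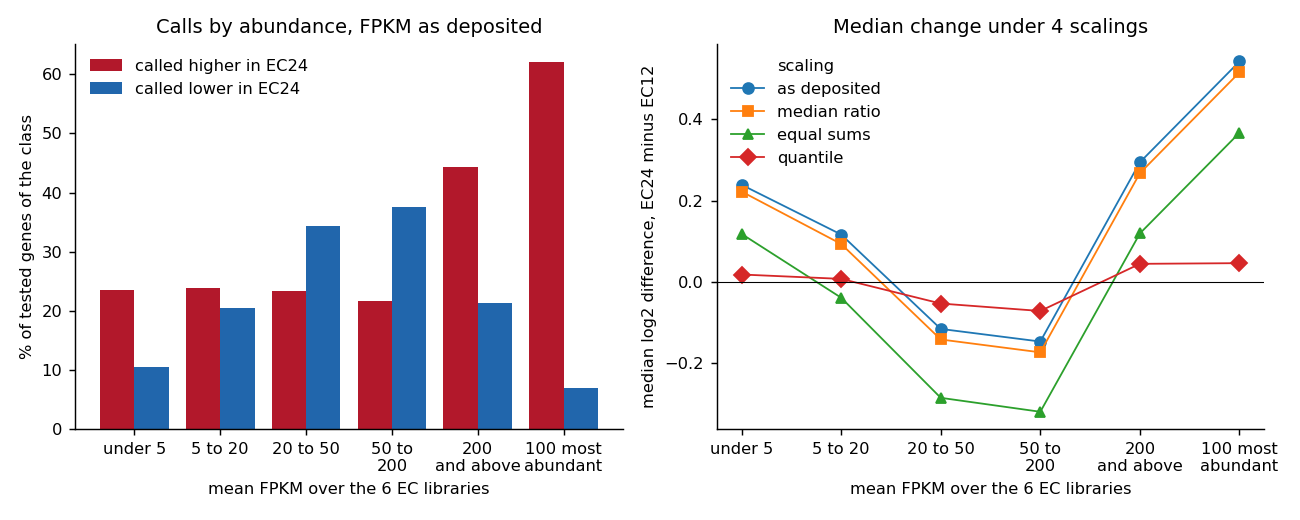
Left, the share of tested genes called higher and lower in EC24 within classes of mean FPKM and among the 100 most abundant genes. Right, the median log2 difference EC24 minus EC12 of the same classes with FPKM as deposited and after 3 other scalings. The share called lower is largest at 50 to 200 (37.5%), the share called higher is 62% among the 100 most abundant genes, and with quantile normalization the medians lie between -0.07 and 0.05 log2 units.

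Among the 100 genes of highest mean FPKM 62 rose and 7 fell, against 24.4% and 25.6% of all tested genes, with a median of 0.54 log2 units. Quantile normalization, which forces every library to the same distribution, left 26 higher and 27 lower, and equal sums left 48 and 11. The 7 falls were 3 without EC24 replicate 1, 3 without EC24 replicate 2 and 12 without EC12 replicate 1. The 100 highest genes at 24 h and the 100 highest at 12 h shared 72 IDs, or 72% of each list, and all 28 that were in the 24 h list alone were called higher. Of the 28 in the 12 h list alone, 15 were called lower. The lists were ranked on the same libraries that made the calls, so the direction of these calls is largely set by the choice. The 3 largest rises among the 100, with values given here and below for replicates 1, 2 and 3 in that order, were these. XLOC_007860 had 2477, 2735 and 2644 FPKM in EC24, against 401, 253 and 314 in EC12, a log2 difference of 3.04 ± 0.17 (standard error; limma adjusted p = 0.000119). BXY_0804400 had 5517, 5783 and 5689 FPKM in EC24, against 466, 1692 and 1982 in EC12, a difference of 2.28 ± 0.49 (limma adjusted p = 0.0063), and it ranked number 3 by mean FPKM in EC24 and number 53 in EC12. BXY_0544900 had 3160.3, 3426 and 3535 FPKM in EC24, against 309, 958 and 1239.7 in EC12, a difference of 2.23 ± 0.45 (limma adjusted p = 0.00514). EC12 replicate 1 was the lowest library for both of these BXY genes and the highest EC12 library for XLOC_007860, so this library was not nearer to EC24 for every gene. Without EC12 replicate 1 the differences were smallest, and without EC12 replicate 3 largest, at 1.63 to 2.67 for BXY_0804400 and 1.63 to 2.63 for BXY_0544900.

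Falls among the abundant genes were smaller. BXY_0387500 had 685, 639.6 and 657 FPKM in EC24, against 1502, 2438 and 1459.5 in EC12, a log2 difference of -1.40 ± 0.20 (standard error; limma adjusted p = 0.00127). BXY_0387700, 2 numbers further in the ID series, had 742, 721 and 735 FPKM in EC24, against 1538, 2118 and 1521 in EC12, a difference of -1.22 ± 0.15 (limma adjusted p = 0.000794). Both had their highest level in EC12 replicate 2 and a tight EC24 group. BXY_0013600 had 1468, 1460.5 and 1437 FPKM in EC24, against 2430.0, 2235 and 2500.3 in EC12, a difference of -0.71 ± 0.12 (limma adjusted p = 0.00248). No overlap between the times was required of every named gene.

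Some other abundant genes, chosen after their values were seen, moved the summed FPKM most. BXY_0569100, the most abundant ID at both times, averaged 14164 ± 102 FPKM in EC24 and 11114 ± 529.7 in EC12 (SD, n = 3). Its groups did not overlap, but the log2 difference of 0.35 ± 0.20 did not pass the test (limma adjusted p = 0.186). BXY_0322900 averaged 9203 ± 952 FPKM in EC24 and 5085 ± 1406 in EC12, a difference of 0.89 ± 0.25 (limma adjusted p = 0.0204). For BXY_0503400 the means were 5594 ± 472 in EC24 and 2489.8 ± 1100.1 in EC12, and for BXY_0842200 they were 5231 ± 554 in EC24 and 2473 ± 305 in EC12 (limma adjusted p = 0.0177 and 0.00176). With BXY_0804400, these 5 IDs had the largest gains in FPKM and together gained 17312 FPKM. The summed FPKM of all IDs differed by 107885, which is the net of gains and losses. The largest loss was that of BXY_0906600, at 1969 ± 118 FPKM in EC24 and 3448 ± 987 in EC12 (log2 difference -0.77 ± 0.21, limma adjusted p = 0.0173).

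The largest rises were of genes at very different levels, with means of 20.7 to 1639 FPKM in EC24 and 0.497 to 116 in EC12. These 8 genes had a mean FPKM of at least 5, no overlap between the times, and stayed called when any 1 of the 6 libraries was left out. BXY_1393700 had 192, 183 and 209 FPKM in EC24, against 2.99, 3.53 and 14.4 in EC12, a log2 difference of 4.90 ± 0.46 (standard error; limma adjusted p = 0.000357). BXY_1680000 had 56.7, 59.2 and 67.6 FPKM in EC24, against 0.75, 0.94 and 1.99 in EC12, a difference of 4.84 ± 0.23 (limma adjusted p = 8.11e-05). In both genes every EC24 library was far above every EC12 library, and on the linear scale the EC24 means were 27.9-fold and 49.9-fold the EC12 means. BXY_1385400 had 502, 561 and 579.7 FPKM in EC24, against 13.3, 25.1 and 69.8 in EC12, a difference of 4.20 ± 0.49 (limma adjusted p = 0.000623). For BXY_1454800 the levels were 502, 502 and 452 FPKM in EC24, against 12.01, 21.7 and 99.6 in EC12, a difference of 3.97 ± 0.64 (limma adjusted p = 0.00194). BXY_1351600 stood at 152, 148 and 126 FPKM in EC24, against 2.23, 9.59 and 21.5 in EC12, a difference of 3.96 ± 0.59 (limma adjusted p = 0.00151). In all 3, EC12 replicate 3 was the highest EC12 library and still lay well below EC24. BXY_0356600 reached the highest level of the 8, with 1703, 1625 and 1589 FPKM in EC24, against 68.04, 82.3 and 199 in EC12, a difference of 3.97 ± 0.35 (limma adjusted p = 0.000338).

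The remaining rises of this kind had the value 0 in an EC12 library. BXY_1362800 had 43.6, 37.1 and 33.9 FPKM in EC24, against 1.00, 3.82 and 0 in EC12, a log2 difference of 4.19 ± 0.50 (standard error; limma adjusted p = 0.000671). BXY_0590900 had 19.5, 22.8 and 19.8 FPKM in EC24, against 0, 0.23 and 1.26 in EC12, a difference of 3.94 ± 0.31 (limma adjusted p = 0.000217). Each was listed at 0 in 1 EC12 library and lay far above its EC12 values in every EC24 library. EC12 replicate 3 held the highest EC12 value in 7 of the 8 largest rises, and replicate 2 in BXY_1362800. Leaving out 1 library moved the log2 differences, with each upper end reached without the library just named, within 4.55 to 5.52 for BXY_1393700, 4.69 to 5.07 for BXY_1680000, 3.67 to 4.82 for BXY_1385400, 3.65 to 4.78 for BXY_1362800, 3.35 to 4.82 for BXY_1454800, 3.67 to 4.43 for BXY_0356600, 3.21 to 4.61 for BXY_1351600 and 3.70 to 4.29 for BXY_0590900.

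The largest falls, chosen by the same rule, left 4 of the 8 genes below an FPKM of 1 in every EC24 library. BXY_0356800 had 7.29, 7.88 and 6.80 FPKM in EC24, against 428, 167 and 164 in EC12, a log2 difference of -4.78 ± 0.34 (standard error; limma adjusted p = 0.000182). BXY_1213300 had 0.95, 0.94 and 0.94 FPKM in EC24, against 34.5, 38.1 and 63.9 in EC12, a difference of -4.53 ± 0.25 (limma adjusted p = 0.000119). BXY_1602400 had 17.2, 12.3 and 12.2 FPKM in EC24, against 162, 203 and 509 in EC12, a difference of -4.12 ± 0.39 (limma adjusted p = 0.00036). Each of these 3 was far higher in every EC12 library than in any EC24 library. BXY_0598200 had 1.16, 1.82 and 1.55 FPKM in EC24, against 48.8, 40.1 and 17.7 in EC12, a difference of -3.75 ± 0.36 (limma adjusted p = 0.000363), and its lowest EC12 library, replicate 3, still lay above all EC24 libraries. EC12 replicate 1 was the highest library in 6 of the 8 falls, and in 4 of them, given next, it stood far above EC12 replicates 2 and 3. BXY_1469100 had 0.18, 0.63 and 0.63 FPKM in EC24, against 194, 12.7 and 11.6 in EC12, a difference of -4.46 ± 0.95 (limma adjusted p = 0.00616). BXY_0618700 had 0.22, 0.22 and 0.21 FPKM in EC24, against 147, 8.78 and 11.1 in EC12, a difference of -4.42 ± 0.92 (limma adjusted p = 0.00554). In both, no EC24 library reached an FPKM of 1, and EC12 replicates 2 and 3 lay close together. BXY_1251800 had 2.38, 1.19 and 2.17 FPKM in EC24, against 117, 20.2 and 25.5 in EC12, a difference of -3.82 ± 0.59 (limma adjusted p = 0.00174). BXY_0593900 had 0.29, 0.88 and 0.12 FPKM in EC24, against 97.8, 6.20 and 7.48 in EC12, a difference of -3.71 ± 0.90 (limma adjusted p = 0.011). All 4 stayed called without any 1 library, which the naming rule required, and their fall was smallest without EC12 replicate 1. The differences in these fits were -5.14 to -3.16 for BXY_1469100, -5.12 to -3.16 for BXY_0618700, -4.29 to -3.05 for BXY_1251800 and -4.37 to -2.49 for BXY_0593900, with limma adjusted p of at most 0.0302, 0.0257, 0.00978 and 0.0438.

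The pair BXY_0356600 and BXY_0356800 are 2 numbers apart in the ID series, and they are among the largest changes in opposite directions. BXY_0356700, the ID between them, had 109, 99.2 and 101 FPKM in EC24, against 92.1, 94.8 and 113 in EC12, a log2 difference of 0.05 ± 0.11 (standard error; limma adjusted p = 0.756), and its groups overlapped.

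**Figure D4:**
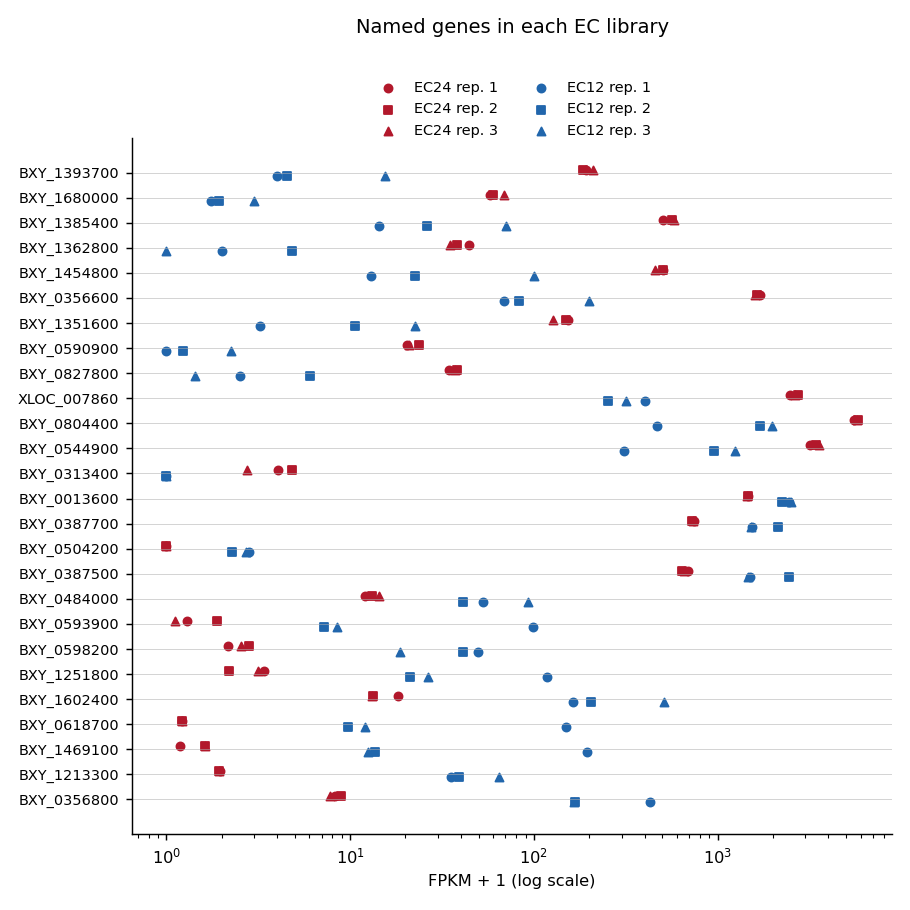
FPKM + 1 on a log axis for the 26 named genes in each EC library, with EC24 in red and EC12 in blue and a symbol for each replicate number, sorted by the log2 difference. The groups do not overlap for any of them, which the naming rule required. For most genes the EC24 symbols lie closer together than the EC12 symbols, and EC12 replicate 1 (circles) is far to the right of the other EC12 libraries for BXY_1469100, BXY_0618700, BXY_1251800 and BXY_0593900.

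Genes that crossed an FPKM of 1 were counted separately. There were 177 genes with at least 1 FPKM in every EC24 library and less than 1 in every EC12 library, of which 163 were called higher, and 107 with the opposite pattern, of which 97 were called lower. Both sets were picked for levels that do not overlap between the times. The direction of their calls is thus fixed by the choice, and nothing is read from the counts called. Most of these genes stayed low, with a median level of 1.86 FPKM at 24 h for those that appeared and 2.31 FPKM at 12 h for those that were lost. The highest that appeared was BXY_1464600, with 12.7, 22.3 and 15.8 FPKM in EC24, against 0, 0 and 0.58 in EC12, followed by BXY_0299100 with 15.6, 13.2 and 17.3 FPKM in EC24, against 0.6, 0.45 and 0.62 in EC12. The highest of those lost were BXY_1469100, BXY_0618700 and BXY_1213300, described above. Only 1 tested gene of each kind was listed at 0 in all 3 libraries of a time. BXY_0313400 had 3.06, 3.81 and 1.73 FPKM in EC24, against 0, 0 and 0 in EC12 (limma adjusted p = 0.000813). BXY_0504200 had 0, 0 and 0 FPKM in EC24, against 1.83, 1.27 and 1.70 in EC12 (limma adjusted p = 0.000953). No fold is given against a group listed at 0.

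IDs that start with XLOC, 332 in the table, were more often called higher than lower. Of the 183 that passed the filter 69 rose and 25 fell, with a median of 0.40 log2 units. Of the 13023 BXY IDs tested, 3150 rose and 3362 fell, with a median of 0.03. The direction held under the 4 scalings, at 70 higher and 24 lower with median ratio scaling, 59 and 29 with equal sums, and 56 and 26 with quantile normalization. The count of falls was 15 without EC24 replicate 2 and 14 without EC24 replicate 3. With a mean FPKM of at least 5 as the filter, 37 rose and 14 fell. XLOC_007860, described above, is one of these IDs and ranks number 63 by mean FPKM over the EC libraries.

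IDs with neighbouring numbers moved the same way more often than pairs at large, which is given as a description with no test. The BXY numbers run without a gap in steps of 100, and whether consecutive numbers lie side by side in the genome is not given in the sources used here. Of 10457 pairs of consecutive IDs with both tested, the second rose in 28.5% of pairs whose first rose, in 19.99% of pairs whose first fell and in 23.6% of all pairs. It fell in 32.1% of pairs whose first fell, in 21.8% of pairs whose first rose and in 26.7% of all pairs. Runs of at least 5 consecutive IDs called in the same direction numbered 10 for rises and 18 for falls.

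The longest run, found by looking through these calls and so without a test of its own, held 22 consecutive IDs from BXY_1627100 to BXY_1629200, all of which rose. The groups did not overlap for any of the 22, beside 61.2% of all tested genes without overlap, and nothing is read from this because the IDs were picked as called. Their log2 differences were 0.99 to 2.89 with a median of 1.78, beside 0.04 over all tested genes, and their limma adjusted p were 8.11e-05 to 0.0394. Summed over the run, the levels were 1814, 1716 and 1707 FPKM in EC24, against 744, 403 and 338 in EC12. EC12 replicate 1 was the highest EC12 library for 20 of the 22 IDs, the same library that stood apart on component 2. The largest change was that of BXY_1629000, with 213, 182 and 179.9 FPKM in EC24, against 31.8, 22.7 and 21.6 in EC12, a difference of 2.89 ± 0.16 (standard error; limma adjusted p = 0.000119). The smallest was that of BXY_1627300, with 9.79, 8.02 and 7.49 FPKM in EC24, against 3.26, 3.72 and 4.23 in EC12, a difference of 0.99 ± 0.19 (limma adjusted p = 0.00399). The ID just before the run, BXY_1627000, fell, with 317, 321 and 312 FPKM in EC24, against 392, 485 and 466 in EC12 (log2 difference -0.49, limma adjusted p = 0.00761), and the ID just after it, BXY_1629300, lay below the filter and was not tested. BXY_1626800, 3 IDs before the run, was called higher too, with a log2 difference of 1.75 ± 0.16. Of the 22 IDs, 18 stayed called without EC24 replicate 1 and 19 to 22 without any other single library, and 21 or 22 were called under each scaling.

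A second run, of 9 IDs from BXY_0387300 to BXY_0388100, fell. It holds BXY_0387500 and BXY_0387700, described among the abundant genes. Its log2 differences were -1.55 to -0.41 with a median of -0.91, and its summed levels were 1747, 1673 and 1697 FPKM in EC24, against 3584, 5125 and 3496 in EC12. Neighbours of the run went the other way or did not pass the test, since BXY_0387200 rose (log2 difference 0.50, limma adjusted p = 0.0155) and BXY_0388200 had a difference of 0.39 (limma adjusted p = 0.32). Of the 9 IDs, 5 stayed called without EC24 replicate 2 and 5 without EC24 replicate 3. Reads shared between overlapping or near-identical neighbours cannot be told apart in FPKM, and how the authors counted them is not given in the sources used here.

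**Figure D5:**
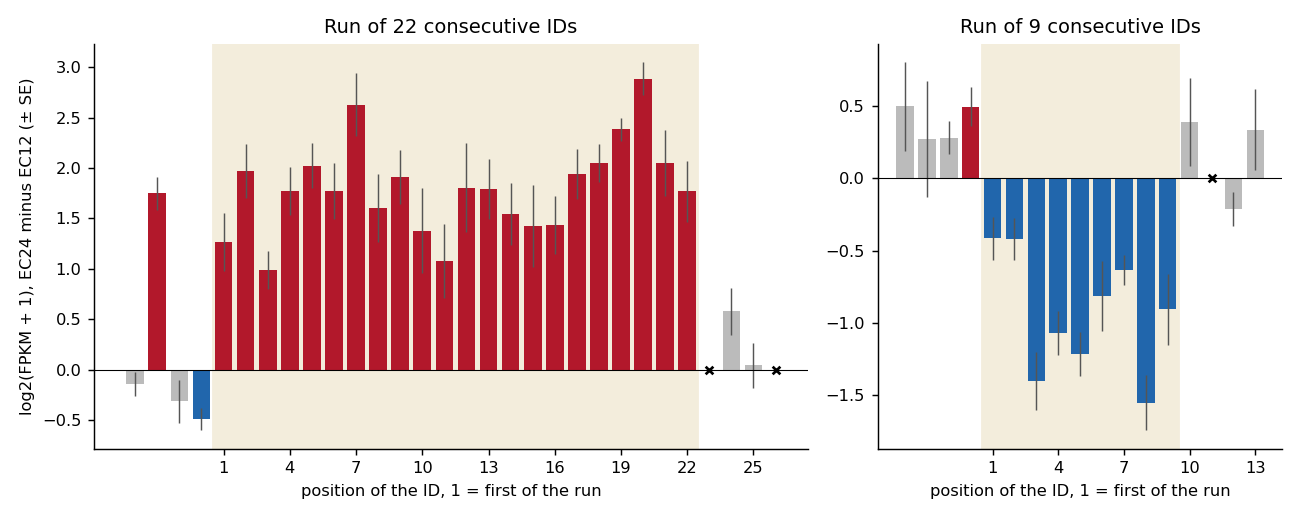
The log2 difference EC24 minus EC12 with its SE for consecutive IDs in and around the run of 22 (left) and the run of 9 (right), with the position in the run on the horizontal axis and the run shaded. Red bars were called higher, blue bars lower, grey bars were not called and crosses mark IDs below the filter. All 22 bars on the left lie between 0.99 and 2.89 and all 9 on the right between -1.55 and -0.41, and the red bar 3 IDs before the run of 22 stands at 1.75.

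Whether the change with time was particular to the adjuvant worms was asked by testing the EC change (EC24 minus EC12) minus the EB change (EB24 minus EB12) in all 12 libraries, which share no library between the changes. Genes that rose in EC had a median EC difference of 0.96 and a median EB difference of 0.79 log2 units, and 92.6% of the 3219 had an EB difference above 0, beside 59.1% of all tested genes. Genes that fell had a median EC difference of -0.81 and a median EB difference of -0.34, and 88.3% of the 3387 had an EB difference below 0, beside 40.9% of all tested genes. Both sets were picked by their EC calls, which enlarges the EC medians but not the EB medians. A smaller change in EB can therefore not be read from these medians. The changes themselves differed for 1155 genes, 8.75% of those tested, of which 263 (1.99%) were more positive and 892 (6.75%) more negative in EC (limma, Benjamini-Hochberg adjusted p under 0.05). Of the 892, 590 were genes that fell in EC, and of the 263, 207 were genes that rose in EC. The EC change is part of the tested difference, so these overlaps are in part set by construction. The median over all genes was -0.21 log2 units as deposited, and it was -0.08 with median ratio scaling, -0.07 with quantile normalization and -0.28 with equal sums. The share of negative calls moved as well: 232 of 519 calls were negative with median ratio scaling, 556 of 1001 with quantile normalization and 1589 of 1845 with equal sums. The count moved with single libraries, to 376, 196 and 176 without EC24 replicates 1, 2 and 3, to 1882 and 730 without EC12 replicates 1 and 3, to 273, 201 and 163 without EB24 replicates 1, 2 and 3, and to 2498 and 474 without EB12 replicates 2 and 3.

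Of all tested genes 30.3% were called higher and 13.5% lower in EB24 against EB12, and among the 26 named genes 20 were called in EB in the same direction as in EC. The named genes were picked for their EC change. Most genes called in EC moved the same way in EB, so nothing is read from the 20. The EC and EB changes differed for 7 of the 26, but 4 of these (BXY_1362800, BXY_0827800, BXY_0356800 and BXY_0484000) had been named for the size of that difference, so the count says nothing of the named genes. BXY_1680000 had 7.08, 7.22 and 5.33 FPKM in EB24 and 7.23, 1.57 and 2.32 in EB12 beside the EC values above. Its EB change was 0.86 ± 0.36 log2 units, and the EC change exceeded it by 3.98 ± 0.51 (standard error; limma adjusted p = 0.00466). BXY_1362800 and BXY_0827800 had similar levels in all 12 libraries. BXY_0827800 had 33.4, 37.1 and 35.98 FPKM in EC24, against 1.53, 5.04 and 0.43 in EC12, a log2 difference of 3.70 ± 0.46 (standard error; limma adjusted p = 0.000762). In the EB libraries it had 2.01, 1.38 and 1.00 FPKM in EB24 and 1.66, 12.98 and 0.12 in EB12, and BXY_1362800 had 1.19, 0.96 and 0.87 FPKM in EB24 and 0.43, 11.03 and 0.12 in EB12, so both were highest there in EB12 replicate 2. The EC change exceeded the EB change by 4.62 ± 1.07 log2 units for BXY_1362800 and 4.22 ± 1.04 for BXY_0827800 (limma adjusted p = 0.0287 and 0.0339), and neither call held when any 1 of the 6 libraries of 24 h, or EC12 replicate 3, was left out. BXY_0590900 rose in EB too, by 1.87 ± 0.30, and its EC change was larger by 2.08 ± 0.43 (limma adjusted p = 0.0207), a call lost without EC24 replicate 2 or 3, without EB24 replicate 2 or 3 and with a pseudocount of 0.1.

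In the other direction, BXY_0356800 had 67.5, 63.4 and 66.3 FPKM in EB24 and 204, 38.4 and 83.3 in EB12, an EB change of -0.40 ± 0.49 log2 units, and the difference of the changes was -4.38 ± 0.69 (standard error; limma adjusted p = 0.00893). BXY_0484000 fell in EC, with 11.02, 12.1 and 13.3 FPKM in EC24, against 51.8, 40.1 and 91.96 in EC12, a log2 difference of -2.16 ± 0.28 (limma adjusted p = 0.000884). In EB it rose, with 47.99, 55.2 and 48.6 FPKM in EB24 and 5.19, 39.9 and 26.99 in EB12, an EB change of 1.42 ± 0.54 (limma adjusted p = 0.0493). Its changes differed by -3.58 ± 0.76 (limma adjusted p = 0.0223), a call that was lost when any 1 of the 6 libraries of 24 h was left out. BXY_1602400 fell in both, by 2.30 ± 0.36 in EB, and the difference of -1.82 ± 0.51 (limma adjusted p = 0.048) was lost in 13 of 22 alternatives. Of the run of 22, 14 IDs were called higher in EB as well, beside 30.3% of all tested genes, with EB differences of 0.22 to 2.35 and summed levels of 1384 ± 48.9 FPKM in EB24 and 642 ± 229.6 in EB12 (SD, n = 3), and 2 of the 22 IDs differed between EC and EB, beside 8.75% of all tested genes. The run of 9 had 4 IDs called lower in EB, beside 13.5% of all tested genes, and 3 IDs that differed, beside the same 8.75%. Both runs were picked by their EC calls. Of all genes that rose in EC, 92.6% had an EB difference above 0, and of those that fell, 88.3% had one below 0. The EB counts are therefore not read as particular to the runs.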

How the data were processed

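Messenger RNA of whole adult worms was measured in 12 libraries, of which the 3 EC24 and 3 EC12 libraries were compared and the 3 EB24 and 3 EB12 libraries were used for the difference between the time changes. The deposited table holds FPKM per gene ID, made by the authors with TopHat2 2.1.1, per the submitters' processing notes. The sources used here give no genome build, annotation, counting tool or read total, so depth is unknown and no interval on single values can be given; the precision comes from the 3 replicates. Columns were matched to samples by title.

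Values were taken as log2(FPKM + 1), a pseudocount of 1. IDs that reached an FPKM of 1 in 3 or more of the 6 EC libraries were kept. limma 3.58.1 in R 4.3.3 was fitted to the 6 EC libraries with a mean per group and a trended prior, and p-values were adjusted by the Benjamini-Hochberg method over all 13206 genes, with a threshold of 0.05. The difference of the time changes was a contrast in 1 fit to the 12 libraries over the same genes. The steps were tested on simulated data, where part of the added changes was missed in both comparisons, more of those of 1 than of 2 log2 units. Far fewer genes were changed there than were called in these data, so the share missed does not carry over. Measures with 1 value per library were compared by exact permutation tests, two-sided.

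Genes were named by a rule. Called genes had to have no overlap between times and stay called in the 6 fits that leave out 1 library (4308 genes). From these were taken the 8 largest differences in each direction at a mean FPKM of at least 5, the 3 in each direction among the 100 most abundant genes, up to 2 in each direction listed at 0 at 1 time, and the 2 in each direction with the largest difference between the EC and EB changes. The 26 genes and the lists were chosen with earlier results of these data known. Of 24 gene lists by protein description, 0 could be filled, because no table pairs the IDs with descriptions. Same-numbered libraries did not deviate together, so replicate numbers were not used as pairs. Other scalings, filters, pseudocounts, weights and fits without 1 library were tried.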

Additional observations from a re-analysis of the deposited data

Results flagged for a closer look

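The change between 24 h and 12 h differed between adjuvant worms and emamectin benzoate worms for 1155 genes (limma on 12 libraries, adjusted p under 0.05), and 7 of the named genes were among them. BXY_1362800, BXY_0827800, BXY_0356800 and BXY_0484000 had been named for the size of this difference, so for these 4 that is fixed by the choice. The EC change minus the EB change was 3.98 log2 units for BXY_1680000, and this call held in all 22 alternatives, within 3.48 to 4.55. For BXY_0356800 it was -4.38, and it also held in all 22. The other calls were lost in some alternatives. The difference was 4.62 for BXY_1362800 and 4.22 for BXY_0827800, each lost in 8 of 22. It was 2.08 for BXY_0590900, lost in 5, -3.58 for BXY_0484000, lost in 6, and -1.82 for BXY_1602400, lost in 13. In none of these alternatives did the direction of these 7 turn round.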

How the results depend on the processing

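For the 26 named genes the difference between EC24 and EC12 kept its direction and stayed called in all 440 recomputations. These include the 6 fits that leave out 1 library. Those fits were part of the naming rule, so their outcome is fixed by the choice. The 6606 calls (3219 higher, 3387 lower) became 4172 (1944 and 2228) at an adjusted p under 0.01 and 2647 (1508 and 1139) when a log2 change of at least 1 was also asked for. With equal library sums they were 2462 higher and 4315 lower. Leaving out 1 library gave 4694 to 8285 calls.

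Among the 100 most abundant genes the 62 higher and 7 lower calls were 26 and 27 after quantile normalization, and 11 were lower with equal sums. Under an FPKM of 5 quantile normalization gave 440 lower calls. XLOC IDs had 37 higher and 14 lower calls with a mean FPKM of at least 5, where fewer genes were tested. Without 1 library, lower calls among the 100 most abundant genes ranged from 3 to 12, and those of XLOC IDs from 14 to 26. Under an FPKM of 5 the ranges were 413 to 890 higher and 181 to 301 lower, and at 5 to 20 they were 590 to 1368 higher. The cause was not tested.

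The difference between the EC and EB changes depended most on the processing. Its 1155 genes (263 positive, 892 negative) were 519 (232 negative) after median ratio scaling, 1845 (1589 negative) with equal sums, and 445 positive and 556 negative after quantile normalization. Without 1 library they ranged from 163 to 2498, with 53 to 676 positive and 110 to 1822 negative. The cause was not tested.

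Same-numbered libraries correlated at -0.03, 0.02 and -0.05 in their deviations from the group means, so no shared deviation was seen. With 3 libraries per group, these correlations cannot exclude that the numbers mark pairs. With the replicate number as a block, 6158 genes were called between EC24 and EC12 (3116 higher, 3042 lower).

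Limits are 3 libraries per group, unknown read depth, an EC12 group more spread than EC24, and scaling that sets the balance of rises and falls.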
